A study of Mus musculus with 3 samples.

Results

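The cells described here are the 68 resting-type regulatory T cells of mouse epidermis, out of 271 epidermal cells kept in a single-cell RNA library of Foxp3-expressing cells. They were chosen by a 6-gene score: the summed unique molecular identifiers (UMIs, each 1 captured transcript) of Tcf7, Lef1, Bcl2, Satb1, Evl and Igfbp4, divided by all UMIs of the cell. A cell was resting-type when its score was above 0 and at or above the 75th percentile of the kept epidermal cells. The other 203 kept epidermal cells are the comparison.

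The study held 3 libraries, 1 each from back epidermis, back dermis and lymph node of adult mice of the strain FOXP3-EGFP (C.Cg-Foxp3tm2Tch/J), in which green fluorescent protein reports Foxp3. All 3 were sorted as GFP+ CD4+ CD3+ CD45+ cells and no animal was treated, so every cell compared carries the reporter. Skin layers were parted with thermolysin and the dermis was digested with collagenase, while lymph node was mashed. The skin libraries used 10x 3′ v3 chemistry and the lymph node library v2. How many animals each library pools, and of which sex and exact age, is not given. With 1 library a tissue there are no replicates and no test was possible: levels are given in CPM, the UMIs of a gene in a group of cells scaled to a common total of 1000000, and intervals are exact 95% intervals that cover counting error only, not the spread between animals.

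Regulatory T cells (Tregs) are CD4 T cells, specified by the transcription factor Foxp3, that hold immune responses in check. In lymphoid organs many of them are resting or central cells, which keep the T cell factors Tcf7 and Lef1, the survival protein Bcl2 and the homing receptors CCR7 and S1PR1 that let cells enter and leave lymph nodes. Tregs that settle in skin and other barrier tissues usually carry an effector program in their place, with integrin alpha E (Itgae, CD103), the growth factor amphiregulin (Areg), the costimulator ICOS and high CTLA-4.

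The label was checked on genes that the score did not use. All 68 resting-type cells and 202 of the 203 other cells held a UMI of at least 1 of Foxp3, Il2ra, Ctla4, Ikzf2 and Izumo1r, and 56 of 68 against 162 of 203 held at least 3 of the 5. Foxp3 itself, the factor that defines the lineage, had a UMI in 42.6% of resting-type cells and 43.3% of the other cells, at 70.4 and 99.1 CPM (log2 ratio -0.49, interval -1.04 to 0.02). Both groups therefore carried Treg transcripts at the level of detection of these libraries. Markers of conventional CD4 T cells summed to 399 CPM in resting-type cells and 204 CPM in the other cells; Igfbp4, at 164 CPM against 0, is a score gene counted in that sum. Of the 6 of these markers at 10 CPM or more, Tnfsf8 and Cd200 were called higher by the rule given below and none lower. Igfbp4 is 1 of the 6 and could not be called. The median log2 ratio of 1.14 includes it, so that median rests in part on a gene the score used. Cd40lg, which activated helper cells use to license B cells, was at 54.2 against 38.5 CPM. A UMI of it was found in 19 of 68 against 14 of 203 cells. Whether some sorted cells are not Tregs, and what part they would have in the values below, was not tested.

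The cells were set apart by a cut through a range of scores and not by clustering. The threshold stood at 424.4 CPM of summed score genes. The resting-type cells nearest to it scored 437.6, 435.5 and 432.0 CPM, and the nearest cells below it scored 416.7, 416.1 and 410.0 CPM. Few cells sat there: 14 kept cells, 9 of them resting-type, lay within 20% of the threshold. A single UMI fewer would put 11 resting-type cells below it and a single UMI more would lift 27 other cells to it, while 149 of the other cells had no score UMI at all. Resting-type cells held 732 score UMIs in all, a median of 8 per cell, against 107 in the other cells.

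Depth, quality and shared barcodes bear on these groups. Resting-type cells had a median of 8045 UMIs (lowest 997, highest 15846) and the other cells 6537 (lowest 742, highest 54520), for totals of 553939 and 1634958 UMIs. Median genes per cell were 2081.5 and 2175, or 673 and 811 once each cell was thinned to 1500 UMIs (65 and 197 cells, with 3 and 6 shallower cells left out). Mitochondrial UMIs had medians of 4.30% and 3.83%. A total of 26 kept epidermal cells, 3 of them resting-type, carried a barcode also kept in the dermal library, and none shared one with lymph node; the shared barcodes had a median of 16544.5 UMIs in epidermis and 1566.5 in dermis. A doublet caller (Scrublet) marked 4 resting-type and 16 other cells, which were kept. Keratinocyte and dendritic cell markers were lower in resting-type cells: the 12 keratinocyte genes summed to 23.5 against 86.9 CPM with 9 at 0 in resting-type cells, and the 11 dendritic and Langerhans cell genes to 141 against 585 CPM with 7 at 0. Most of the dendritic cell sum was Cd74 (119 against 451 CPM), which T cells can also express, and Epcam was at 12.6 against 76.5 CPM. Of 6 endothelial and mural genes, Pecam1, which T cells can also carry, was higher at 83.0 against 19.6 CPM and the other 5 were at 0 in resting-type cells. The part of these transcripts in the comparison was not tested.

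A gene was called higher or lower in resting-type cells when the CPM ratio was at least 2, the higher group had at least 50 CPM, and at least 10% of its cells held a UMI; the 6 score genes were left out. Of 3124 genes that could be called, 107 (3.43%) were higher and 478 (15.3%) were lower. These are differences within 1 library between cells chosen by their RNA, so they describe the cells and test nothing. Without the 26 cells of shared barcodes, with the threshold taken again, 62 resting-type cells against 183 others gave 107 higher, 90 of them among the original 107, and 554 lower, 398 of them among the original 478. Without the cells marked as doublets, 63 against 188 cells gave 107 higher, 98 of them shared, and 539 lower, 454 of them shared.

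Ribosomal protein genes took more of the RNA of resting-type cells, 36.7% of all UMIs against 21.7% in the other cells, which pushes every other gene down on the CPM scale. The median log2 ratio over all genes with at least 50 CPM was -0.38, and it was -0.06 after TMM scaling and 0.01 when mitochondrial and ribosomal UMIs were left out of the totals. The split of calls moved with it, with 18.3% of calls in the higher direction by CPM, 45.1% by TMM (213 higher, 259 lower) and 51.1% without those UMIs (359 higher, 344 lower). Ratios are by CPM below, and those near 1 are best read against these shifts. Of 81 ribosomal protein genes measured, 79 had a ratio above 1, with a median of 1.69-fold, but the limit of 2-fold called only 5 higher (Rps27, Rps19, Rps7, Rps18 and Rps24) and 1 lower, Rps27l, at 108 against 243 CPM.

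**Figure D1:**
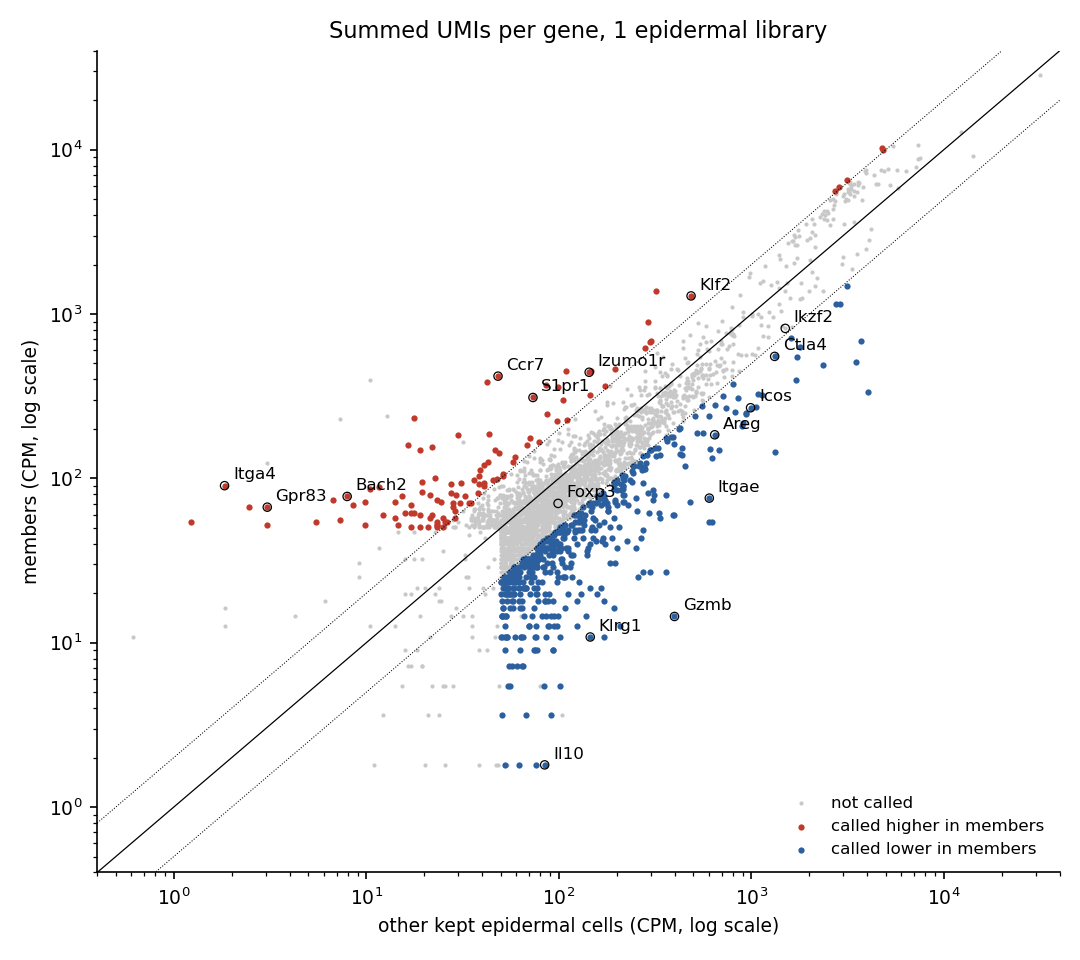
Level of each gene in the 68 resting-type cells (vertical axis, CPM, log scale) against its level in the other 203 kept epidermal cells (horizontal axis, CPM, log scale), with genes called higher and lower in colour. The called genes lie beyond the 2-fold lines, 107 above and 478 below, with Ccr7 and S1pr1 among those above and Itgae and Gzmb among those below.

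The score genes come first as a description of the rule. Tcf7, a transcription factor that maintains naive and memory T cells, was at 125 against 3.06 CPM (40 of 68 against 2 of 203 cells), and its partner Lef1 at 166 against 31.8 CPM (41 against 37 cells). Bcl2, which blocks apoptosis, was at 399 against 10.4 CPM, and the chromatin organiser Satb1 at 238 against 12.8 CPM. Evl, an actin regulator, was at 229 against 7.34 CPM. Igfbp4, which binds insulin-like growth factors, was at 164 CPM against 0, all of it in 17 resting-type cells. Most resting-type cells held several of the genes: 50 of the 68 and 4 of the other 203 held 3 or more of the 6, and 5 resting-type cells held only 1. Igfbp4 was less widely spread, with 41.8% of its UMIs in 3 cells.

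When each score gene was left out of the score in turn and then measured in the cells chosen by the remaining 5, all 6 stayed higher in the chosen cells. Bcl2 was 20.2-fold higher (interval 13.7 to 30.7), Tcf7 13.9-fold (7.58 to 27.7), Satb1 13.7-fold (8.99 to 21.6) and Evl 8.05-fold (5.48 to 12.1). Lef1 had the smallest ratio, 3.77-fold (2.68 to 5.33). Igfbp4 stood 132-fold higher, with an interval of 35.4 to 1104 because the remaining cells held 2 UMIs. Between 59 and 67 of the 68 resting-type cells were chosen again in each case. The 6 genes were also picked together with earlier results of these data known. This outcome was thus largely set by the choice of genes, and the ratios describe the rule and are no independent check.

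Genes of lymphoid homing and quiescence gave more higher calls in resting-type cells than any other list used. Of 29 list genes measured at 10 CPM or more, 13 were called higher and none lower, with a median log2 ratio of 1.56, beside -0.36 over all 7970 genes measured at that limit. Ccr7, the receptor that guides cells to lymph node T zones, was at 419 against 48.3 CPM (8.67-fold; log2 3.12, interval 2.74 to 3.50). S1pr1, the receptor for the lipid that draws cells back out of tissues, was at 311 against 73.4 CPM (4.23-fold; log2 2.08, interval 1.74 to 2.43). Klf2, a transcription factor that drives S1pr1 in T cells, was at 1289 against 486 CPM (2.65-fold; log2 1.41, interval 1.26 to 1.55). On mm10 Ccr7 lies at chr11:99144196-99155077 on the minus strand, with S1pr1 at chr3:115710433-115715072 on the minus strand and Klf2 at chr8:72319033-72321656 on the plus strand.

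The cells of the groups overlapped for each of these genes. Single resting-type cells had a median of 183 CPM of Ccr7 and a highest of 1955, against a median of 0 and a highest of 712 in the other cells. S1pr1 had medians of 228 and 0 CPM, with highest cells of 3003 and 2193 CPM. Klf2 reached higher in single other cells than in any resting-type cell, with medians of 1031 and 205 CPM and highest cells of 9137 and 10438 CPM. At an equal 1500 UMIs per cell, a Ccr7 UMI was found in 32.3% of resting-type and 5.58% of other cells (61.8% and 15.3% unthinned). For S1pr1 the thinned shares were 32.3% and 7.11% (77.9% and 23.2% unthinned), and for Klf2 70.8% and 37.1% (89.7% and 67.5% unthinned). The order of the groups was thus the same at equal depth. The library holds no cell type known to lack these genes, so the share that free RNA gives was not measured here.

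Other genes of the same list followed. Bach2, a repressor that holds T cells back from effector fates, was at 77.6 against 7.95 CPM (9.76-fold), and Ly6c1, a surface protein of naive and central T cells, at 161 against 16.5 CPM (9.73-fold), although Ly6 genes have near copies that make its reads uncertain. Klf3, a relative of Klf2, was at 150 against 19.0 CPM, and Foxp1, which guards T cell quiescence, at 462 against 197 CPM. Actn1, an actin crosslinker, was at 56.0 against 7.34 CPM. The membrane proteins Ms4a4b and Ms4a6b were abundant, at 1376 against 319 CPM and 899 against 290 CPM, and belong to a family of near-identical genes. Pik3ip1, a brake on PI3 kinase, had a log2 ratio of 1.84 and the thioredoxin inhibitor Txnip one of 1.07. Members of the list without a call included Foxo1 (log2 0.58), Ets1 (0.27), Cd27 (0.03), Gpr183 (-0.43) and the IL-7 receptor Il7r, at 208 against 359 CPM (-0.79).

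Itga4, the alpha 4 integrin chain that pairs with beta 1 or beta 7 for entry into inflamed tissue and gut, had the largest ratio among the called genes, at 90.3 against 1.83 CPM (49.2-fold; log2 5.62, interval 3.99 to 7.95), with 3 UMIs in all the other cells. It lies at chr2:79255426-79333123 on the plus strand of mm10. Because KLF factors bind CACCC-type elements and Klf2 itself was higher, RefSeq promoters (GRCm38.p6, 250 bases before to 50 after each start) were searched on both strands for CCACCC. Itga4 had the largest ratio and Klf2 was the more abundant of the 2 KLF genes called higher in the homing group, so the 250 bases before their starts are shown with the match in capitals; the match in Klf2 is on the reverse strand and reads as GGGTGG. The Itga4 stretch is chr2:79255176-79255425 on the plus strand, with the match 45 bases before the start, and the Klf2 stretch is chr8:72318812-72319061 on the plus strand, with the match 19 bases before the start. RefSeq places the start of Klf2 downstream of the GENCODE start given above, so the end of this stretch, with the match, lies within the gene as GENCODE draws it.
Itga4: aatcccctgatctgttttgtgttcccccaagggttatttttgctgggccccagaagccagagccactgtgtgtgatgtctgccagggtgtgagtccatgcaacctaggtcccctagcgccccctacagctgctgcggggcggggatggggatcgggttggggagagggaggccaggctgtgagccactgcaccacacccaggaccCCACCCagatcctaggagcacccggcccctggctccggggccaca
Klf2: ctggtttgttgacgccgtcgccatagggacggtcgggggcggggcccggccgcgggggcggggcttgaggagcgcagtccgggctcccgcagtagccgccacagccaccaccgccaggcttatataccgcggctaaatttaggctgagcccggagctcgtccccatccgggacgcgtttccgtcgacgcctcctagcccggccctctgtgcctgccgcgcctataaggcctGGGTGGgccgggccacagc

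The motif was common everywhere. CCACCC was found in 50% of the 84 promoters of higher genes that matched by symbol, in 38.1% of 367 promoters of lower genes, in 36.6% of the 2425 promoters of all genes tested and in 30.9% of 27025 promoters. The TCF/LEF motif CTTTGA was in 10.7%, 10.1%, 12% and 16.2% of the same sets, and the FOXO motif GTAAACA in 2.38%, 1.91%, 2.43% and 3.55%. A match is letters in a window and not a bound site.

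The Gimap genes, GTPases that support survival of lymphocytes, formed a compact group higher in resting-type cells. All 8 had at least 10 CPM, 5 were called higher and none lower, with a median log2 ratio of 1.31. Gimap6 was at 453 against 109.5 CPM (log2 2.05), Gimap4 at 370 against 85.6 CPM (2.11), Gimap3 at 448 against 147 CPM (1.61), Gimap9 at 224 against 97.9 CPM (1.19) and Gimap7 at 103 against 38.5 CPM (1.42). At 1500 UMIs per cell a Gimap4 UMI was found in 33.8% of resting-type and 7.11% of other cells (85.3% and 20.7% unthinned). The call of Gimap7 ended when cells were required to hold a Foxp3 UMI (0.35), with the score limit at the 90th percentile (0.73), and within cells marked by Y-linked UMIs (0.45). Gimap genes are close relatives in 1 cluster, so their reads may be shared.

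Treg identity genes went both ways. Of 17 core genes, 4 were called higher and 4 lower, with a median log2 ratio of -0.49. Izumo1r, folate receptor 4, a surface protein of natural Tregs, was higher at 442 against 144 CPM (3.08-fold; log2 1.62, interval 1.36 to 1.89), in 76.5% against 26.1% of cells. Gpr83, an orphan receptor of Tregs, was higher at 66.8 against 3.06 CPM (21.8-fold), and Lrrc32, which holds latent TGF-beta on the Treg surface, at 97.5 against 36.1 CPM (log2 1.43). Nrp1, a semaphorin receptor of thymus-derived Tregs, was higher at 126 against 42.8 CPM (log2 1.56), but its call ended in 4 alternatives, with 0.73 without shared barcodes and 0.17 at the 90th percentile. Lower were Ctla4, the inhibitory receptor that strips B7 molecules, at 552 against 1322 CPM (log2 -1.26, interval -1.44 to -1.09), and Tnfrsf18, the costimulator GITR, at 309 against 851 CPM (-1.46). The actin-capping protein Capg was lower at 325 against 1083 CPM (-1.74), and Il2rb, the IL-2 receptor beta chain, at a log2 ratio of -1.07. The call of Ctla4 ended in 5 of 25 alternatives: under both size-factor scalings (-0.97 each), without mitochondrial and ribosomal UMIs in the totals (-0.92), in cells with a Foxp3 UMI (-0.90) and with the score taken on thinned cells (-0.65). Ikzf2, the factor Helios, at 818 against 1500 CPM (-0.88), and Il2ra, the high-affinity IL-2 receptor chain CD25, at 224 against 440 CPM (-0.98), fell short of a call.

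Single cells showed how far these Treg genes overlapped. Resting-type cells had a median of 287 CPM of Izumo1r and a highest of 1553, against a median of 0 and a highest of 2332 CPM in the other cells. Ctla4 had medians of 300 and 1010 CPM, with highest cells of 6624 and 11009 CPM, and Ikzf2 had medians of 544 and 1520 CPM, with highest cells of 3373 and 8308 CPM. Every resting-type value of these 3 genes lay within the range of the other cells.

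Further genes were named only for their rank among the called ratios. Higher in resting-type cells were Ms4a4c, another membrane-spanning gene of the Ms4a family, at 66.8 against 2.45 CPM (27.3-fold), Cd9, a tetraspanin, at 74.0 against 6.73 CPM (11-fold) and Sh3bp5, an exchange factor for the GTPase Rab11, at 54.2 against 5.5 CPM (9.84-fold). Gsta4, a glutathione transferase, was at 52.4 against 3.06 CPM, but 75.9% of its UMIs came from 3 cells. At the other end stood Gcnt1, the glycosyltransferase that builds core 2 O-glycans, with 1 UMI in resting-type cells and 124 in the others, found in 1.47% and 35.5% of cells. Cpd, carboxypeptidase D, held 3 and 166 UMIs, in 4.41% and 45.8% of cells (log2 -4.23, interval -6.52 to -2.66). Mt1, a metal-binding metallothionein, held 2 and 148 UMIs, and 50.7% of those in the other cells came from 3 cells. Slc15a3, a lysosomal peptide transporter, held 2 and 110 UMIs, and Tyms, thymidylate synthase, 1 and 86. The histone gene Hist1h2ae, at 12.6 against 207 CPM, belongs to a family of near copies and took 66.9% of its UMIs in the other cells from 3 cells.

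Most genes of the effector and tissue Treg list were lower in resting-type cells. Of 31 genes measured, 24 were called lower and none higher, and the median log2 ratio was -2.72. Gzmb, the cytotoxic protease granzyme B (chr14:56258838-56262260, minus strand), was at 14.4 against 399 CPM (27.6-fold lower; log2 -4.79, interval -6.01 to -3.80), and its highest single cell held 544 CPM among resting-type cells and 22800 CPM among the others. Areg, an epidermal growth factor receptor ligand of repair Tregs, was at 184 against 645 CPM (3.5-fold lower; log2 -1.81), in 11.8% against 43.8% of cells, or 3.08% against 24.9% at 1500 UMIs. Its highest cells reached 12983 CPM among resting-type cells and 13330 CPM among the others. That highest resting-type cell held most of the Areg UMIs of its group, so the level of 184 CPM rests largely on it. The 75th percentile of single cells was 0 CPM among resting-type cells and 466 CPM among the others. The call of Areg ended when only cells with a Foxp3 UMI were compared (log2 -0.26). Icos was at 269 against 991 CPM (3.68-fold lower), with a UMI in 54.4% against 93.6% of cells.

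Several effector genes were close to absent from resting-type cells. Il10, an anti-inflammatory cytokine, held 1 UMI there (1.81 CPM) against 84.4 CPM in the other cells, 46.8-fold lower with a log2 interval of -10.86 to -3.05, and Il1r2, the IL-1 decoy receptor, also held 1 UMI (log2 -5.11). Tff1, a secreted trefoil peptide, had no UMI in resting-type cells against 185 CPM in the others, at least 34.1-fold lower against a floor of 3 counts over the group. Il1rl1, the IL-33 receptor ST2 of tissue Tregs, was at 12.6 against 97.3 CPM (log2 -2.94), and Klrg1, an inhibitory receptor of terminal effector cells, at 10.8 against 146 CPM (-3.75). The abundant cytoskeletal and calcium-binding transcripts of activated T cells were lower too, S100a6 at 338 against 4018 CPM, S100a4 at 507 against 3516 CPM and Lgals1 at 487 against 2349 CPM. Transcription factors of the effector state were lower, with Maf at 134 against 628 CPM, Prdm1 (Blimp-1) at 14.4 against 91.1 CPM, Batf at a log2 ratio of -1.51 and Irf4 at 18.1 against 85.0 CPM. Gata3, which supports skin Tregs and type 2 cells, was at 117 against 219 CPM (-0.90) without a call, as were Bhlhe40, Srgn, Nfil3, Tigit, Penk and Ebi3.

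Tissue retention genes were mostly lower. Of 15 residency genes, 7 were called lower and 1 higher (median -1.66). Itgae, the CD103 chain that binds E-cadherin on keratinocytes (chr11:73090583-73147446, plus strand), was at 75.8 against 605 CPM (7.98-fold lower; log2 -3.00, interval -3.48 to -2.55), with a UMI in 22.1% of resting-type and 91.6% of other cells, or 10.8% and 61.9% at 1500 UMIs. Single cells had a median of 0 CPM of Itgae and a highest of 875 among resting-type cells, against a median of 593 and a highest of 4530 among the others. Cxcr6, a retention receptor, was at 9.03 against 74.6 CPM (-3.05), and Ahr, the aryl hydrocarbon receptor that senses environmental ligands at barriers, at 14.4 against 82.0 CPM (-2.50). Cd69, the early activation protein that opposes S1PR1 at the surface, was at 433 against 632 CPM (-0.55) with no call, and Rgs1 had a log2 ratio of 0.06. The higher gene was Vps37b, an endosomal sorting subunit, at 247 against 86.9 CPM (1.51).

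Chemokine receptors went both ways, with more of them lower. Of 19 measured, 2 were called higher, Ccr7 and S1pr1, which the list holds as an egress receptor, and 10 lower, with a median log2 ratio of -1.98. The skin-homing and inflammatory receptors were among the lower, with Ccr10 at 10.8 against 75.2 CPM (-2.80), Ccr6 at a log2 ratio of -1.98, Cxcr3 at 23.5 against 127 CPM (-2.43) and Ccr2 at 61.4 against 331 CPM. Ccr8, a receptor of skin T cells and effector Tregs, had 2 UMIs in resting-type cells, 3.61 against 50.8 CPM (log2 -3.81, interval -6.88 to -1.92), and its call ended in 8 of 25 alternatives. Cxcr4 was not called (-0.58). Adhesion genes also went both ways: of 18, 3 were higher, including Itga4 and Cd96, a nectin receptor at 77.6 against 15.3 CPM (2.34), and 7 were lower, including Itgae, Itgb8, Icam1 (19.9 against 158 CPM) and Cd44 (59.6 against 397 CPM). Itgb7, the shared partner of alpha 4 and alpha E, was at 312 against 462 CPM (-0.57) and Itgb1 at a log2 ratio of 0.19, both without a call.

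**Figure D2:**
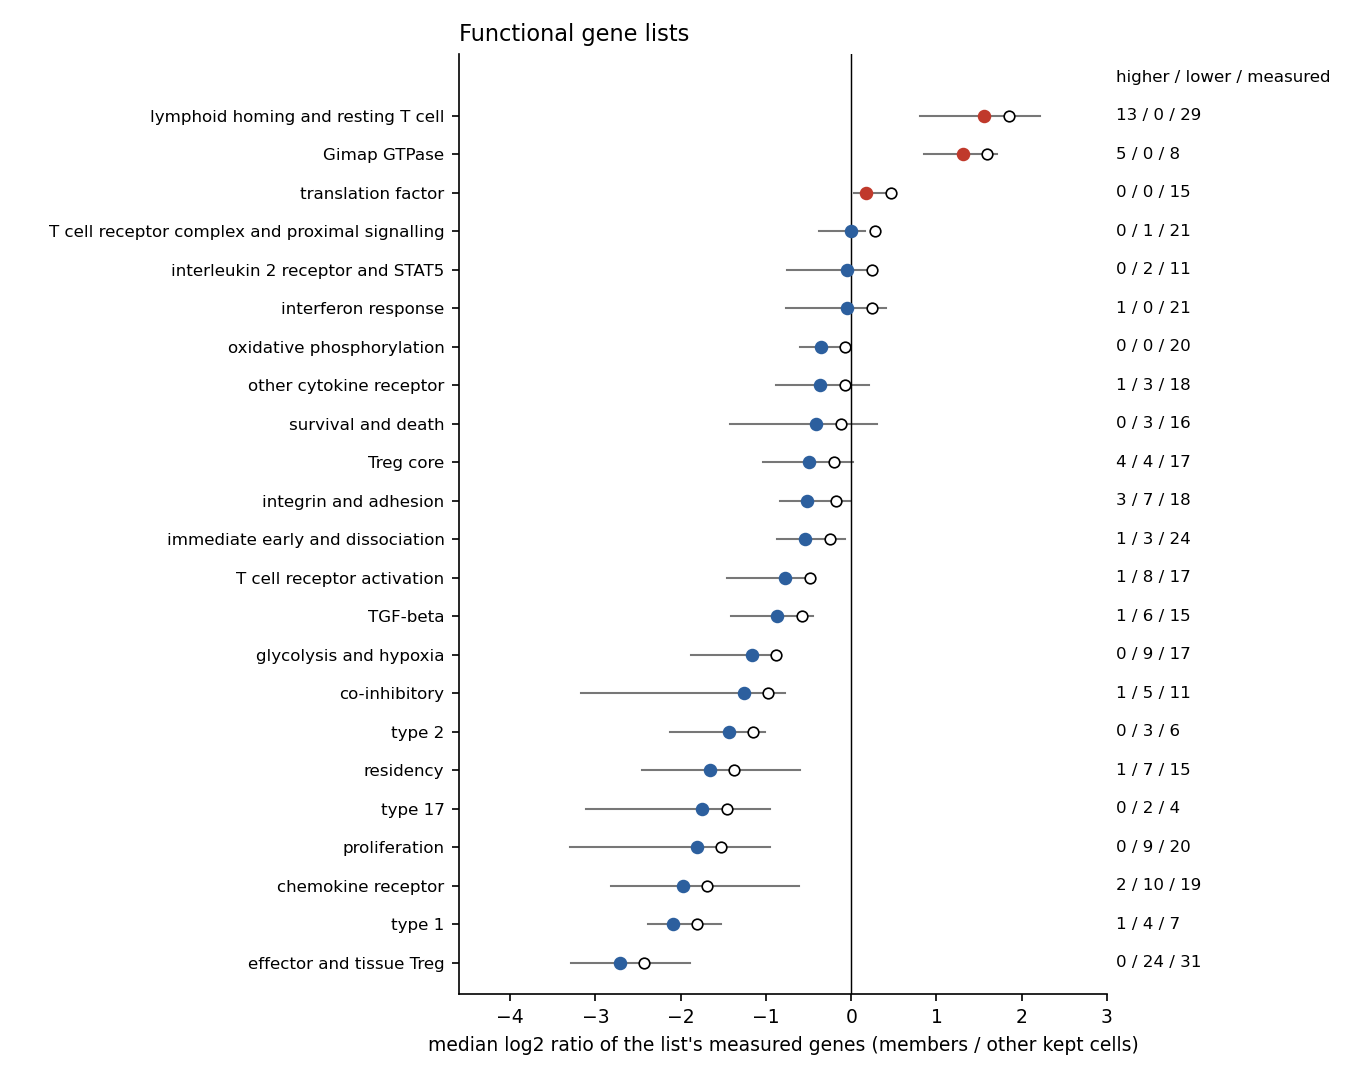
Median log2 ratio of resting-type over other kept epidermal cells (horizontal axis) for each functional gene list (rows), by CPM (filled) and by TMM scaling (open circles); lines join the medians of the members' interval limits, and the text gives genes higher, lower and measured. The effector list sits at -2.72 and the homing list at 1.56 by CPM, while TCR complex, interferon and IL-2 list medians turn positive under TMM (0.28, 0.24 and 0.24).

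Counts for T cell receptor activation, immediate early and TGF-beta genes are over list genes at 10 CPM or more. Of all genes tested, at 50 CPM or more, 15.3% were lower and 3.43% higher. On the base of the lists, the same calls were 478 lower and 107 higher of 7970 genes at 10 CPM or more. The immediate early list had few calls, and no direction is given for it. Of 17 activation genes 8 were lower and 1 higher (median -0.77): Nr4a1, an early target of receptor signalling, was at 139 against 434 CPM (-1.64) and its relative Nr4a2 at 70.4 against 34.3 CPM (1.04). Of 24 immediate early genes, which are also induced by tissue dissociation, Fosb (-1.16), Zfp36 (-1.10) and Dusp1, at 249 against 938 CPM (-1.91), made 3 lower, with 1 higher (median -0.54). The call of Fosb held in 16 of 25 alternatives and that of Zfp36 in 18, with weakest log2 ratios of -0.56 and -0.30. Jun was the higher gene, at 320 against 145 CPM (1.14), and the call of Jun ended in 5 alternatives, with log2 ratios of 0.81 to 0.99. Of 15 TGF-beta genes 6 were lower and Lrrc32 was higher (median -0.87), with Tgfbr1 at a log2 ratio of -1.90, Pmepa1, a target gene of the pathway, at 37.9 against 201 CPM (-2.41) and Tgfb1 at 139 against 286 CPM (-1.04). Components of the receptor complex itself were level: 1 of 21, Cd6, was lower (-1.02) and none higher (median -0.01), with Cd3d at 809 against 792 CPM.

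Cytokine pathway lists moved little by comparison. Of 11 IL-2 pathway genes 2 were lower, Il2rb and the feedback inhibitor Cish (-1.31), with a median of -0.05. Of 21 interferon response genes 1 was higher, Rnf213 (1.25), also with a median of -0.05. Of 18 other cytokine receptor genes 3 were lower, Il1rl1, Il1r2 and the TNF receptor Tnfrsf1b at 61.4 against 293 CPM (-2.25), and 1 higher, Ifngr2 (1.12). The calls of Cish, Rnf213 and Ifngr2 held in 22, 17 and 18 of 25 alternatives. The medians of the IL-2, interferon and receptor complex lists were above 0 under TMM scaling and without mitochondrial and ribosomal UMIs (0.29, 0.29 and 0.33), so no direction is given for them. Genes of the type 1, type 17 and type 2 lists had medians of -2.09, -1.75 and -1.44, with 4 of 7, 2 of 4 and 3 of 6 called lower. These were Cxcr3, Ccl5, Nkg7 and Hopx for type 1, Ccr6 and Batf for type 17, and Il1rl1, Ccr8 and Areg for type 2. Hopx, a homeodomain protein of type 1 cells, was at 209 against 894 CPM (-2.09), and Stat4, the IL-12 signal transducer, was the 1 gene of these lists called higher, at 92.1 against 27.5 CPM (1.74).

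Inhibitory receptors, survival and growth genes were mostly level or lower. Of all genes tested, at 50 CPM or more, 15.3% were lower and 3.43% higher. On the base of the lists, 478 were lower and 107 higher of 7970 genes at 10 CPM or more, with a median log2 ratio of -0.36. Of 11 co-inhibitory genes 5 were lower and 1 higher (median -1.26). The lower genes were Ctla4, Klrg1, Cd200r1 (-2.24), Lag3 and Havcr2, with Lag3 at a log2 ratio of -2.98, Havcr2 (TIM-3) at 0 against 61.8 CPM (at least 11.4-fold lower) and Cd200, a ligand that calms myeloid cells, at 61.4 against 17.7 CPM (1.79). Among 16 survival genes 3 were lower and none higher. Their median of -0.41 is close to that of all genes, so no direction is given for this list. Bcl2 is a score gene and is not counted. Cflar had a log2 ratio of -1.09 and Bcl2a1b, 1 of a family of near copies, one of -1.55. Bcl2l1, the protector Bcl-xL, was at 14.4 against 94.8 CPM (-2.71), Mcl1 had a log2 ratio of 0.27 and Bcl2l11, the killer BIM, one of 0.81. Of 20 proliferation genes 9 were lower and none higher (median -1.81), with Mki67 at 16.2 against 108 CPM, Top2a at 10.8 against 172 CPM and Stmn1 at 27.1 against 275 CPM. A minority of the other cells carried these UMIs, with Mki67 in 2 of 68 against 33 of 203 cells, Top2a in 4 against 32 and Stmn1 in 3 against 28. Over single cells the summed list had medians of 1010 and 1236 CPM. Of 17 glycolysis genes 9 were lower (median -1.17), led by Tpi1 (-2.54), Pgk1 (-2.49), Pgam1 (-2.44) and Aldoa, at 246 against 936 CPM (-1.93). Pgk1 and Tpi1 have processed copies in the genome that may share reads. Of 20 oxidative phosphorylation genes none was called (median -0.36), which is close to the median of all genes, and of 15 translation factor genes none was called (median 0.18).

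The resting-type cells were not uniform. When all kept cells were laid out in 4 tiers of the score (149 cells at 0, 54 above 0 and below the threshold, and 34 resting-type cells on either side of their own median score), Klf2 stood at 484.5, 489, 1010.5 and 1564 CPM and S1pr1 at 51.3, 112, 265 and 355 CPM. Itgae stood at 692, 454, 142 and 10.8 CPM over the same tiers, Icos at 1044, 899, 465 and 75.3 CPM, and Gzmb at 479, 261, 25.4 and 3.6 CPM. The summed levels of the lower-scoring 34 resting-type cells thus lay between those of the other cells and the higher-scoring 34 for each of these 5 genes. Such sums can mix unlike cells. In a layout given below, 9 resting-type cells had mostly other cells as neighbours and held 26 of the 42 Itgae UMIs of resting-type cells. Whether single cells were intermediate was not tested. Areg was at 773, 426, 363 and 7.2 CPM, and 100 of its 102 UMIs in resting-type cells came from the lower-scoring 34. Only 8 resting-type cells held an Areg UMI, and most of these UMIs came from a single cell at 12983 CPM. The Areg level of the lower-scoring 34 thus rests largely on that cell. The effector list summed to 21629, 15146, 6183 and 1492 CPM and the homing list to 3441, 3688, 7041 and 8852 CPM. Some genes did not follow the score: Nrp1 stood at 31.9, 61.6, 185 and 68.1 CPM, Gimap4 at 53.2, 141.5, 378 and 362 CPM, and Foxp3 at 93.8, 108, 61.8 and 78.9 CPM. Ribosomal protein UMIs were 19.9%, 24.7%, 31.9% and 41.4% of the total, and median UMIs per cell were 6102, 7966.5, 7952.5 and 8263, so the low end of the score was also the shallow end.

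**Figure D3:**
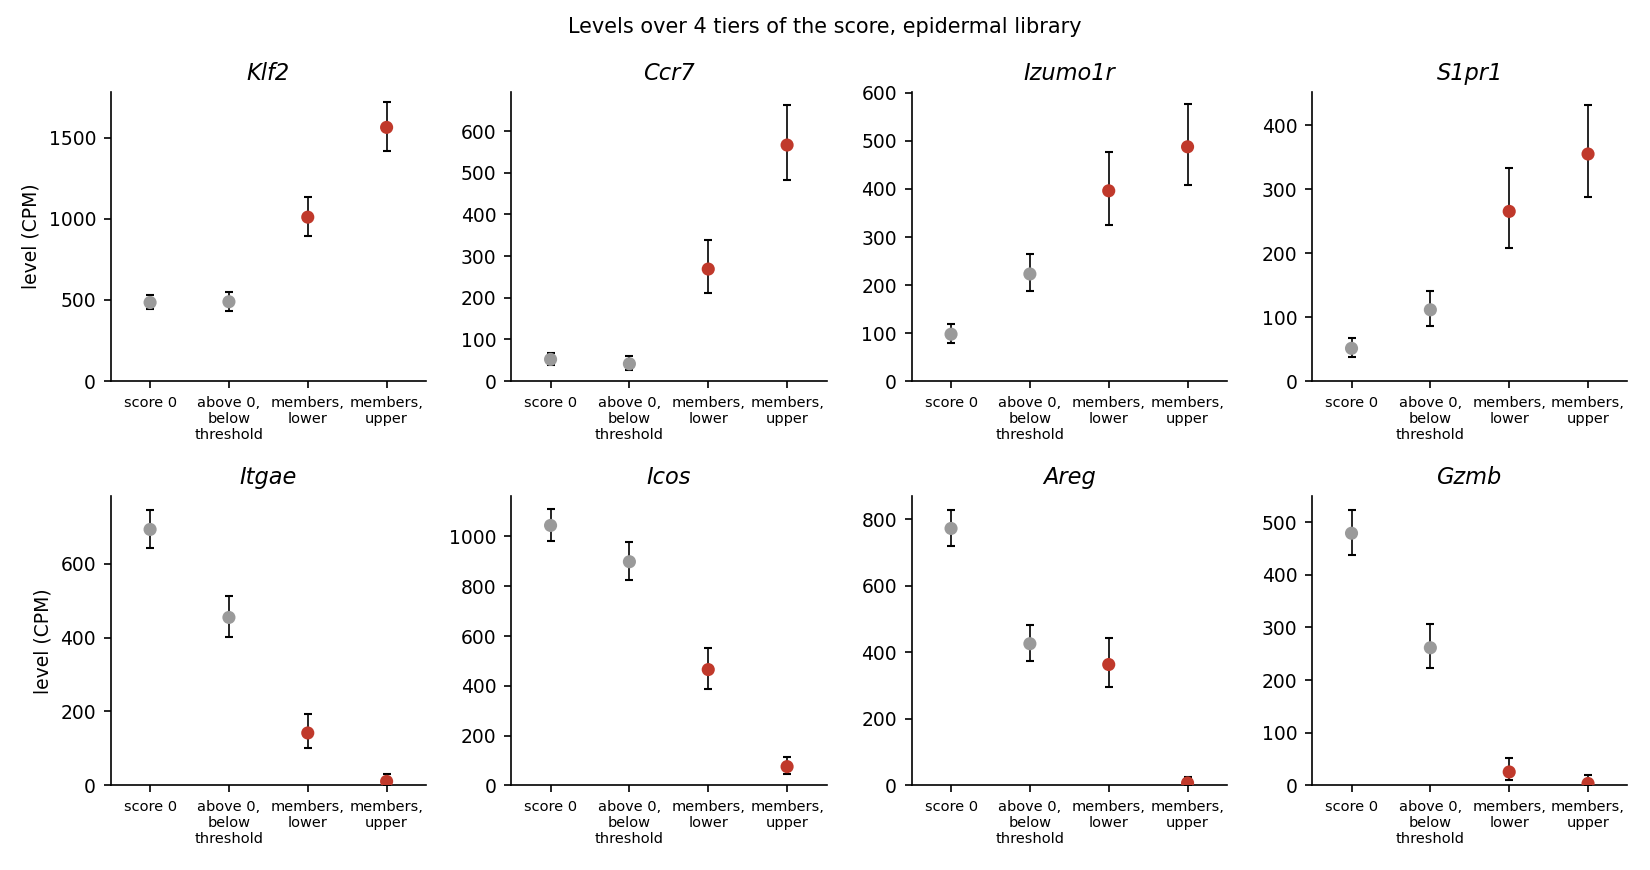
Level of 8 genes (vertical axis, CPM) in 4 tiers of kept epidermal cells by score (horizontal axis, from 0 to the upper 34 resting-type cells), with exact 95% Poisson intervals as bars. Klf2, Ccr7, S1pr1 and Izumo1r are highest in the uppermost tier, and Itgae, Icos, Areg and Gzmb are lowest in the uppermost, with Itgae at 10.8 CPM there.

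Single cells combined these genes. Both Ccr7 and S1pr1 were detected in 33 of 68 resting-type cells (48.5%) and 6 of 203 other cells (2.96%), and neither was detected in 6 and 131. At least 1 of this pair without Itgae was seen in 48 resting-type and 7 other cells, and Itgae with neither of them in 1 resting-type and 121 other cells. Itgae was detected in 15 resting-type and 186 other cells in all.

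The cells were also laid out without the score genes, by principal components of the 1500 most variable other genes. Resting-type cells had a median of 14 resting-type cells among their 15 nearest neighbours, and the other cells a median of 0, where the share of resting-type cells in the library is 25.1%. At least 8 resting-type neighbours were found for 59 of 68 resting-type and 8 of 203 other cells. The 9 resting-type cells with fewer than 8 looked different: they held no Ccr7 UMI, 501 CPM of Itgae, 2620 CPM of S100a6 and 1291 CPM of Ctla4, against 462, 31.9, 102 and 476 CPM of Ccr7, Itgae, S100a6 and Ctla4 in the 59. Their median number of score UMIs was 3, against 10 in the 59. The 8 other cells among resting-type neighbours had 225 CPM of S1pr1, 622 CPM of Ms4a4b and 2 UMIs of Itgae. These subsets were set after seeing the cells and share every gene of the layout, so their values are a description.

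**Figure D4:**
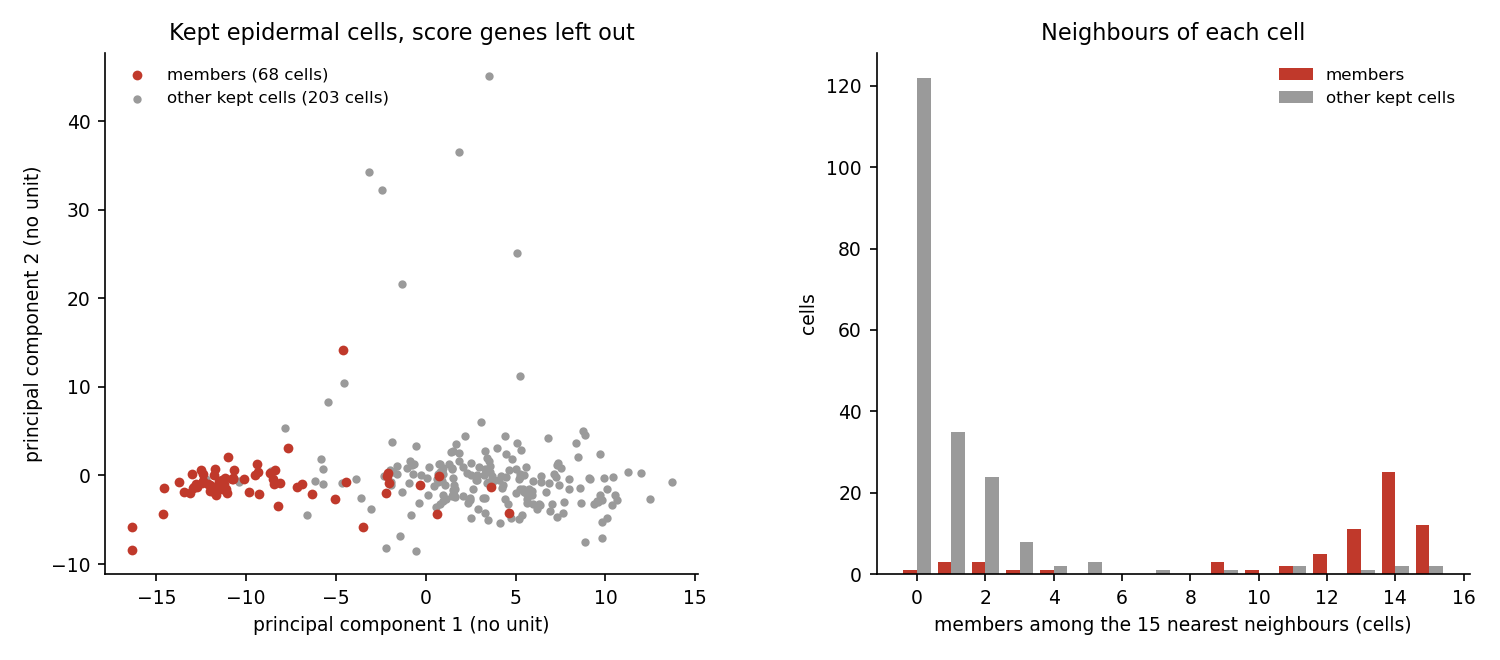
Kept epidermal cells on the first principal components of a layout made without the 6 score genes (left, arbitrary units). The right panel gives the number of resting-type cells among each cell's 15 nearest neighbours, as counts of cells in each group. Most of the 68 resting-type cells lie together and some lie among the other cells, with a median of 14 resting-type neighbours against 0 for the other cells.

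The library mixed cells with Xist UMIs, from the inactive X chromosome of females, and cells with Y-linked UMIs, so it held cells of more than 1 animal. Cells with only Xist made up 19 of 68 resting-type cells (27.9%) and 88 of 203 others (43.3%), and cells with only Y-linked UMIs 28 (41.2%) and 70 (34.5%). The comparison was repeated within each. These are subsets of the cells on which the genes were called, so the counts that follow are a description and no independent check. Of the 107 higher genes, 106 kept their direction in Xist cells and 107 in Y-linked cells (88 and 90 at 2-fold or more), and of the 478 lower genes 471 and 472 did (372 and 377 at 2-fold or more). Ccr7 had log2 ratios of 3.18 in both, Itgae -2.44 and -3.37, and Gzmb -5.44 and -4.38. Areg (-1.01 and -3.91) and Icos (-0.98 and -2.36) were further apart, and the difference between subsets was not tested.

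Few dermal cells had scores as high. Of 838 kept dermal cells 17 (2.03%, interval 1.19 to 3.23) reached the epidermal threshold, against 25.1% of epidermal cells by construction and 7603 of 9305 lymph node cells (81.7%, interval 80.9 to 82.5). At an equal 1500 UMIs per cell, a score UMI was found in 24.4% of 262 epidermal cells, in 5.28% of 815 cells from dermis and in 78.7% of 9216 from lymph node, with summed score levels of 383, 51.8 and 1245 CPM; tissue handling differed in all 3 and the kit in lymph node, and these cannot be told apart from the tissue. Under each library's own 75th percentile, the dermal threshold fell at 0, so its upper group was the 125 cells with any score UMI, and 16 of 2956 genes (0.541%) were called higher and 7 (0.237%) lower. In lymph node the threshold was 1868 CPM of summed score genes, above the 424.4 CPM of epidermis. Most lymph node cells below it still passed the epidermal threshold, so this split is unlike the epidermal one. In lymph node 0 of 2442 genes (0%) were called higher and 24 (0.983%) lower. Of the 107 genes higher in epidermal resting-type cells 9 were higher in the dermal split too (8.41% of the epidermal and 56.25% of the dermal genes), and 3 of the 478 lower were lower (0.628% and 42.9%). The 9 included Izumo1r, at 68.5 against 15.9 CPM in the dermal split (log2 2.11), Nrp1, at 88.5 against 20.9 CPM (2.08), S1pr1, at 82.2 against 39.3 CPM (1.06), and Gimap3, Gimap4, Gimap6, Ms4a4b and Ms4a6b, with log2 ratios of 1.17 to 1.41. The 3 were Il10, at 46.4 against 125 CPM (-1.43), Glcci1 and the histone gene Hist1h2ap, the last 2 picked after their values were seen. Without a higher call in lymph node, no gene could be called higher in all 3 libraries, and none was called lower in all 3. Of the 24 lower in lymph node, 20 were lower in epidermis (83.3% and 4.18%), among them Itgae, Icos, S100a6, S100a4, Cd44, Maf and Batf, and none was called the other way in any pair.

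The 17 dermal cells, a group set after seeing the data, differed from the other dermal cells in some of the genes named above. Against the other 821 dermal cells, Ccr7 was at 362 against 67.6 CPM (5.35-fold), Izumo1r at 229 against 23.2 CPM (9.91-fold) and Gimap6 at 519 against 70.3 CPM. Klf2 was nearly level in dermis, at 1472 against 1356 CPM (1.09-fold). Foxp3 was at 109 against 148 CPM, with 9 UMIs in the 17 cells (log2 interval -1.58 to 0.49), and Ctla4 at 893 against 2287 CPM. Itgae, at 241 against 430 CPM, was 1.78-fold lower, with 20 UMIs in the 17 cells (log2 interval -1.55 to -0.20). Areg was at 205 against 772 CPM, with 17 UMIs found in 17.6% of the 17 cells. The effector list summed to 8906 CPM in these 17 cells and 24361 CPM in the other dermal cells, beside 3822 CPM in epidermal resting-type cells, 19246 CPM in other epidermal cells and 3630 CPM over all kept lymph node cells. The homing list summed to 6649, 4532, 7952, 3532 and 6612 CPM in the same order. Epidermal resting-type cells differed from lymph node cells in immediate early genes, which summed to 6757 against 2557 CPM, and in single genes such as Cd69 (433 against 92.0 CPM). Tissue handling and kit differed between these libraries too, and cannot be told apart from the tissue. In resting-type and lymph node cells Areg was at 184 against 4.3 CPM and Itgae at 75.8 against 56.9 CPM. Both were carried by the lower-scoring resting-type cells, Areg mostly by a single cell. The upper 34 held 7.17 CPM of Areg and 10.8 CPM of Itgae.

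**Figure D5:**
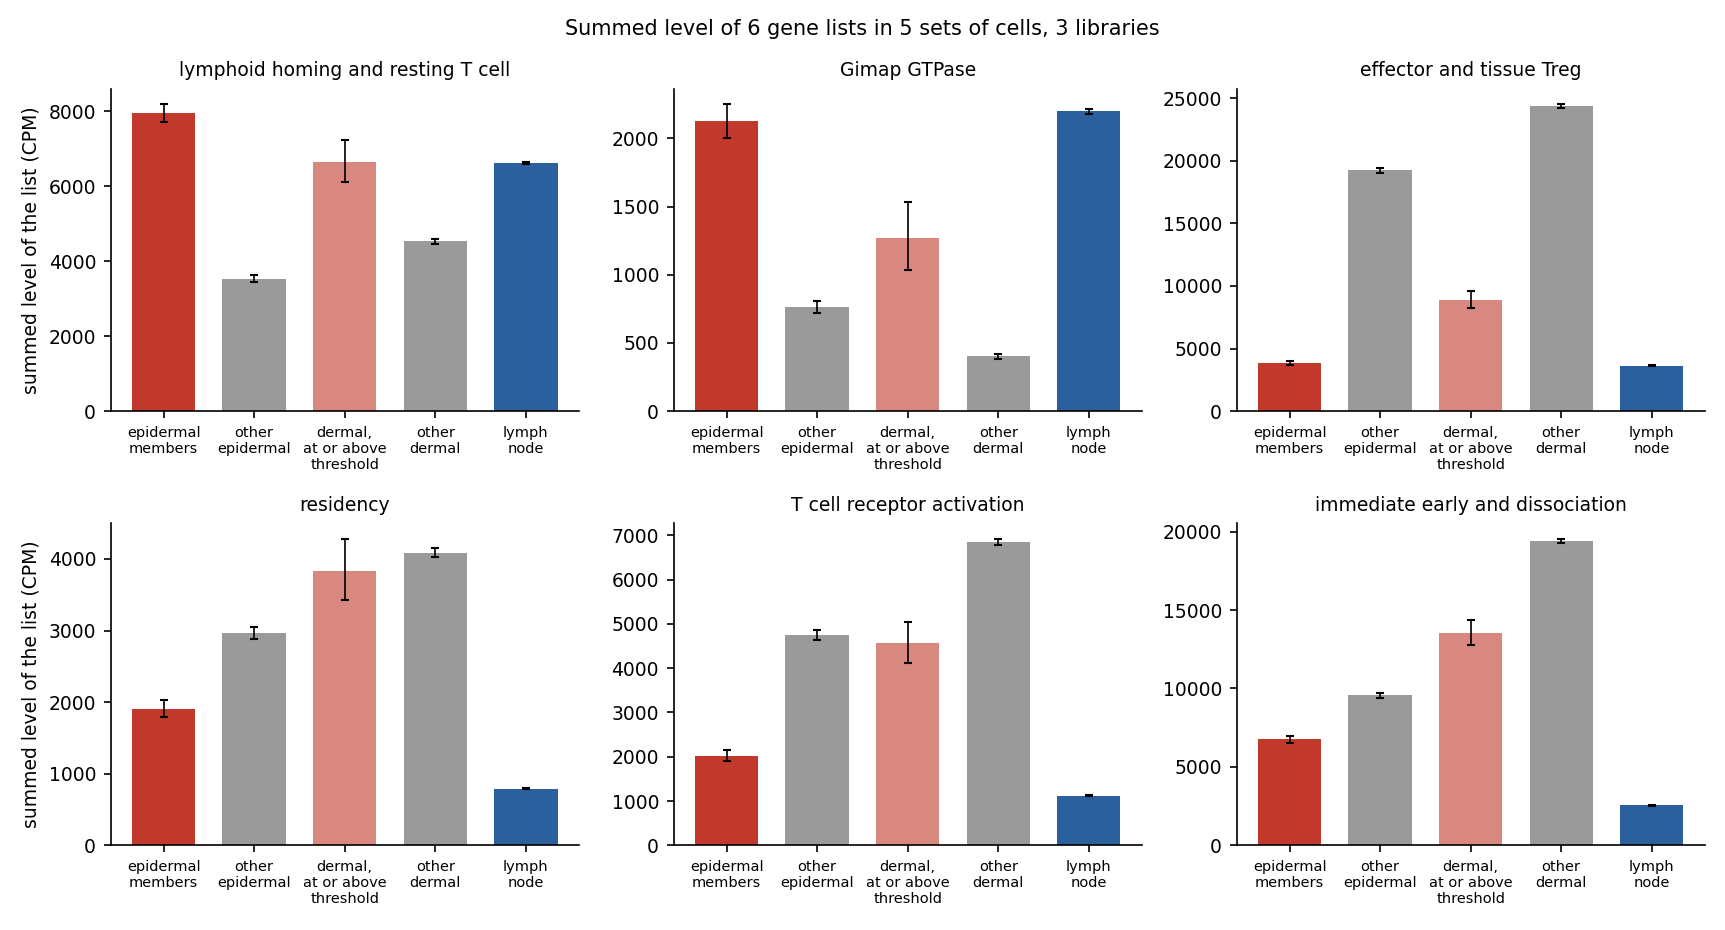
Summed level of 6 gene lists (panels, vertical axis in CPM) in epidermal resting-type cells, other epidermal cells, 17 dermal cells at or above the epidermal threshold, other dermal cells and all kept lymph node cells (horizontal axis). The effector list is lowest in epidermal resting-type (3822 CPM) and lymph node cells (3630 CPM), and immediate early genes are lowest in lymph node (2557 CPM).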

How the data were processed

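The deposited files hold UMI counts per gene and cell barcode, 1 matrix a tissue, with 27998 genes. The authors made them with Cell Ranger, version 4.0.0 per the file headers of the skin matrices; the sources used here give none for lymph node, and the build is mm10 per the submitters' processing notes. Epidermis held 360 barcodes and 2317477 UMIs.

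Barcodes were kept with at least 500 UMIs, 300 genes, mitochondrial UMIs of 10% or less and 2 UMIs over Cd3d, Cd3e, Cd3g and Cd4. This kept 271 epidermal (2188897 UMIs), 838 of 1077 dermal and 9305 of 9419 lymph node barcodes. In epidermis 63 barcodes exceeded the mitochondrial limit, 43 lacked T cell UMIs and 8 had too few genes, some for more than 1 reason. Counts were summed over cells and ratios given exact 95% binomial intervals, CPM exact Poisson intervals and shares exact (Clopper-Pearson) intervals. A gene without UMIs in 1 group was set to a floor of 3 counts. List medians used genes at 10 CPM or more. Gene positions are from GENCODE vM21. The members and gene lists were chosen with earlier results of these data known. Named genes were a fixed set of 18, the 10 highest and 10 lowest called ratios, and up to 4 called genes of each list; other genes named were picked after their values were seen. A gene that these rules would name is not reported here. Scrublet and the layout ran in scanpy 1.11.5 under Python 3.11.15 (numpy 2.4.6, pandas 2.3.3, scipy 1.17.1); TMM factors came from edgeR 4.0.16 in R 4.3.3.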

Additional observations from a re-analysis of the deposited data

Results flagged for a closer look

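The mitochondrial limit of 10% removed 63 epidermal barcodes from every comparison above, and some of them carried score UMIs. Of the 63, 18 (28.57%, interval 17.9 to 41.3%) reached the score threshold of the resting-type cells. The 4.76% that a count of 0 in 63 allows only marks that this share was not 0. Their median was 1416.5 UMIs, beside 1705 over all 63. At 1705 UMIs a single score UMI amounts to 587 CPM and passes the threshold, and 19 of the 63 held any score UMI, so the share at or above the threshold is close to the share with any score UMI and is not comparable with that of the deeper kept cells. In the 18 against the other 45, Ccr7 was at 1156 against 145 CPM and S1pr1 at 680 against 96.5 CPM, while Itgae was at 306 against 832 CPM and S100a6 at 170 against 1917 CPM. All of these barcodes exceeded the mitochondrial limit, and what part cell damage has in their values was not tested.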

How the results depend on the processing

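No paired analysis was possible because each tissue has 1 library and no replicates, so leaving out replicates was not possible either. Over 25 alternatives, 1 of them (leaving out shared barcodes) chosen after seeing the data, the effector list median stayed between -3.05 and -1.71 and the homing list median between 1.15 and 1.90. The effector median was -1.81 with the score limit at the 67th percentile and -1.71 with the score taken on thinned cells, which also gave 70 genes higher. The 90th percentile gave 720 lower. Both TMM and median-of-ratios factors gave 213 higher and 259 lower, totals without mitochondrial and ribosomal UMIs 359 higher, a limit of 20 CPM 234 higher and 1003 lower, and one of 100 CPM 46 and 235. Cells with only Xist gave 198 higher. All 78 called named genes kept their sign throughout and 28 kept their call in every alternative. Calls of Icos (-0.98 in Xist cells), Klrg1 (-0.99 at the 67th percentile), Nkg7 (-0.77 with a Foxp3 UMI), Stat4 (0.80 at the 90th percentile), Batf (-0.74) and Aldoa (-0.91, both with the thinned score) ended once or more; those of Cd6 and Il2rb held in 14 and 9 of 25. Depth limits the genes with 1 to 3 UMIs in resting-type cells. The causes were not tested.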

Other observations

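Among genes outside the functional lists, picked after their values were seen, several T cell genes were higher in resting-type cells. Tnfsf8, the CD30 ligand, was at 54.2 against 1.22 CPM (log2 5.47). Tbc1d4, a Rab GTPase activator, had a log2 ratio of 3.06, Nsg2 one of 2.93 and Itm2a one of 2.36, and the Tec kinase Txk one of 2.10.

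The genes lower in resting-type cells included large cytoskeletal and membrane transcripts. Vim, the intermediate filament protein vimentin, was at 684 against 3728 CPM and Lmna, a nuclear lamin, at 54.2 against 627 CPM. Crip1 was at 1146 against 2763 CPM and S100a10, the annexin partner, at 1155 against 2889 CPM. Ahnak, a large scaffold protein, was at 217 against 908 CPM, and Odc1, the first enzyme of polyamine synthesis, at 72.2 against 481 CPM.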
